A study of Mus musculus with 4 samples.

Results

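The Gpnmb Adamdec1 macrophages were 391 cells of mouse brain tumours, taken from 16289 barcodes in 4 single-cell RNA libraries. A cell was a member when it had at least 200 genes and at most 10% mitochondrial UMIs (unique molecular identifiers, each standing for 1 captured RNA molecule) and met 7 further counts. C1qa, C1qb, C1qc, Ms4a7, Arg1 and Apoe together had to give at least 30 UMIs and Lyz2 at least 3, S100a8 and S100a9 together had to stay under 1% of UMIs, and Cd3e had to be 0. The microglial genes Fcrls, Tmem119, Crybb1, P2ry12 and Sall1 had to give under 2 UMIs and the cycling genes Mki67 and Top2a at most 2. Of the 1961 macrophages that passed these conditions, members were those with more UMIs of Gpnmb and Adamdec1 than of Mrc1 and Pf4. The 867 cells with the opposite order were the Mrc1 Pf4 macrophages, with which the members were compared, and 703 cells had equal counts.

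The tumours came from C57BL/6 mice, and the libraries held tumour-infiltrating immune cells taken at the symptomatic stage. A pair of libraries came from tumours with mutant IDH1 (mIDH1) and a pair from tumours with wild-type IDH1 (wtIDH1), and all 4 carry the same run name. Wild-type IDH1 turns isocitrate into alpha-ketoglutarate, and the mutant enzyme turns that product into D-2-hydroxyglutarate. The design asks how the immune cells of mIDH1 tumours differ from those of wtIDH1 tumours. The labels give no other tumour lesion, no age and no gate or enrichment for the cells, and they do not say whether libraries of 1 genotype came from separate mice, so the spread between them may be technical.

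Macrophages of a brain tumour come from blood monocytes that mature in the tissue and from microglia. GPNMB is a glycoprotein of lysosomes and late endosomes that macrophages make when they take up lipid and cell debris, and ADAMDEC1 is a secreted metalloprotease made by macrophages as they differentiate. MRC1, a mannose receptor, and PF4, a platelet-type chemokine, are read in another range of tissue macrophages. Gpnmb lies on chromosome 6 at 49036546 to 49070929 (plus strand) and Adamdec1 on chromosome 14 at 68563380 to 68582095 (minus strand), in the mm10 build as annotated by GENCODE.

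Members numbered 45 and 28 in mIDH1 replicates 1 and 2, against 141 and 177 in wtIDH1 replicates 1 and 2. As a share of the gated macrophages of each library they made up 11.1% (95% Wilson interval 8.39 to 14.5%) and 8.89% (6.22 to 12.5%) in the mIDH1 libraries, against 23.3% (20.1 to 26.8%) and 27.9% (24.6 to 31.5%) in the wtIDH1 libraries. The groups did not overlap, at 9.99% ± 1.55 in mIDH1 and 25.6% ± 3.29 in wtIDH1 (SD, n = 2 each). This share is a description without a test, since the genes that chose the members may themselves vary with genotype, and the intervals cover counting error only. The Mrc1 Pf4 cells numbered 235 and 136 in mIDH1, against 210 and 286 in wtIDH1.

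**Figure D1:**
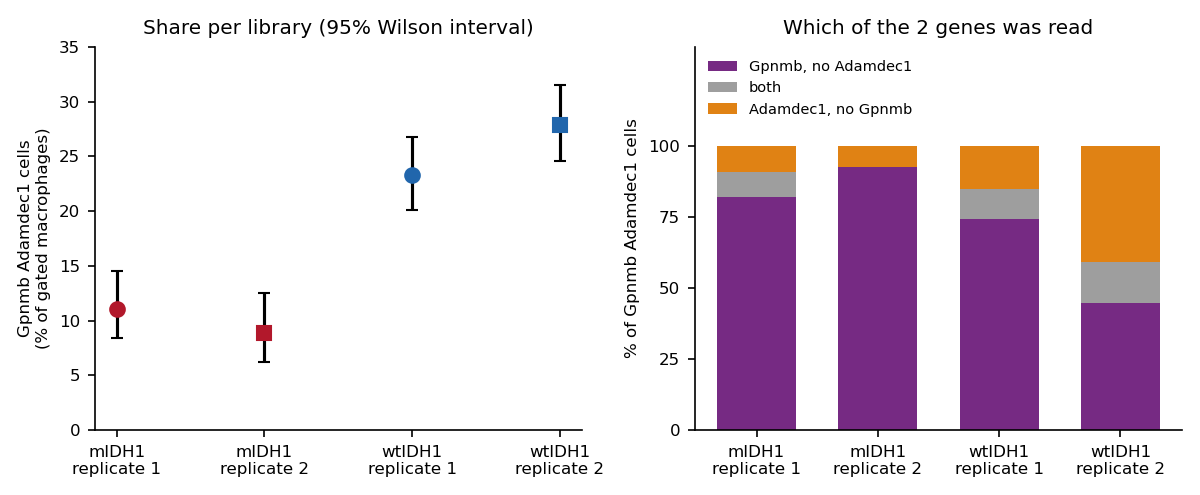
Left, Gpnmb Adamdec1 cells as a percentage of gated macrophages in each library, with 95% Wilson intervals, where the mIDH1 libraries lie at 11.1 and 8.89% and the wtIDH1 libraries at 23.3 and 27.9%. Right, the percentage of members in which Gpnmb, Adamdec1 or both were read, with Adamdec1 in most members of wtIDH1 replicate 2 only.

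The condition that parts the classes is narrow for many cells. A lead of exactly 1 UMI, just inside the rule, was seen in 12 and 7 members of the mIDH1 libraries and in 27 and 34 of the wtIDH1 libraries. Just outside it, Mrc1 and Pf4 led by 1 UMI in 41 and 27 cells of the mIDH1 libraries and in 61 and 57 of the wtIDH1 libraries. The median lead of members was 5 and 3.5 UMIs in mIDH1 and 6 in each wtIDH1 library. Members had medians of 12719 and 11061 UMIs per cell in mIDH1, against 9764 and 9382 in wtIDH1, and their summed counts were 632397 and 359222 UMIs against 1624936 and 1881158. The mIDH1 sums thus rest on fewer and less even cells, with 23.1 and 30.1% of their UMIs in the 3 largest cells, against 8.02 and 5.64% in wtIDH1. Libraries shared 6 to 25 barcodes by pair, and none of the shared barcodes was a member.

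All levels that follow are CPM, the UMIs of a gene scaled to a total of 1e+06 UMIs for the class's sum in that library. Gpnmb, which chose the members and is given without a test, stood at 993 and 2241 CPM in the mIDH1 libraries and at 1751 and 1146 CPM in the wtIDH1 libraries, so the genotypes overlapped. Adamdec1, which also chose the members, stood at 68.0 and 8.35 CPM in mIDH1, against 119 and 677 CPM in wtIDH1, highest in wtIDH1 replicate 2. It was read in 17.8 and 7.14% of mIDH1 members and in 25.5 and 55.4% of wtIDH1 members. In T cells of the same libraries, gated for Cd3e and for few macrophage UMIs, it was read in 0 to 1.29%. Both gates shaped this contrast, so it is a description and no measure of specificity. The second name of the members thus applies to most of them in wtIDH1 replicate 2 alone.

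Of the other markers of the label, Apoe, an apolipoprotein that carries cholesterol out of cells, stood at 18316 and 30672 CPM in mIDH1 members and 17465 and 17117 CPM in wtIDH1 members. In the Mrc1 Pf4 cells its levels were 6641 and 5892 CPM in mIDH1 and 7558 and 9767 CPM in wtIDH1, below the members in every library. Ms4a7, a membrane protein of infiltrating macrophages, was read at 169 to 328 CPM in members and 151 to 171 CPM in Mrc1 Pf4 cells. Hmox1, which breaks down heme and was not part of the rule, went against the label, with a log2 fold change of -0.01 ± 0.14 between members and Mrc1 Pf4 cells (adjusted p = 0.999, edgeR). Csf1r, the receptor of macrophage growth factor, was read in 86.7 and 85.7% of mIDH1 members and 88.7 and 86.4% of wtIDH1 members. The C1q genes gave under 10 UMIs in 24.4 and 46.4% of mIDH1 members and in 22.0 and 15.8% of wtIDH1 members, so complement C1q is low in part of the cells.

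Markers of other cell types were read in unequal amounts, and whether their RNA came from other cells or from the members was not tested. The 12 neutrophil markers, 2 of them limited by the rule, summed to 1319 and 1100 CPM in mIDH1 members, against 221 and 229 CPM in wtIDH1 members. Camp, Ngp and Ltf were at 0 in both mIDH1 libraries. The T and NK cell markers summed to 14.2 and 5.57 CPM in mIDH1 and 40.6 and 20.2 CPM in wtIDH1. The 12 microglia markers, 5 of them limited by the rule, summed to 351 and 431 CPM in mIDH1 members and 621 and 697 CPM in wtIDH1 members, without overlap. In Mrc1 Pf4 cells they summed to 252 and 183 CPM in mIDH1 and 558 and 569.6 CPM in wtIDH1, below the members in each library. Between 7 and 12 of the 12 were detected in members, with Fcrls, Slc2a5, Crybb1, Siglech and Sall1 at 0 in mIDH1 replicate 1. The 6 erythroid markers gave 2 and 7 UMIs in mIDH1 members and 13 and 1236 UMIs in wtIDH1 members, so wtIDH1 replicate 2 stood apart, at 657 CPM. The tumour, glial and neuronal markers summed to 56.9 and 69.6 CPM in mIDH1, against 38.2 and 39.9 CPM in wtIDH1, and Olig1, Olig2, Bcan, Ptprz1, Dcx and Snap25 were at 0 in all 4.

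At least 5 UMIs of the tumour, glial and neuronal markers were found in 3 members, all of mIDH1. A cell of 53053 UMIs in mIDH1 replicate 1 held 77 UMIs of Cald1, 51 of Krt18 and 74 of Il11 but 0 of Ptprc, the pan-leukocyte gene, and 4 of Tyrobp, a myeloid adaptor. A cell of 57329 UMIs in mIDH1 replicate 2 held 53 of Cald1, 11 of Krt18, 14 of Il11, 3 of Ptprc, 14 of Tyrobp and 111 of Arg1. The third, of 36087 UMIs, held 75 of Tyrobp and 402 of Arg1 and none of Cald1, Krt18 or Il11. Together they gave 14.1 and 16.0% of the members' UMIs in mIDH1 replicates 1 and 2, and results are therefore given with and without them, a setting chosen after the data were seen. Wherever members are compared with Mrc1 Pf4 cells, leaving out the 3 cells also left out Mrc1 Pf4 cells that met the same limit. These were 3 and 1 cells of wtIDH1 replicates 1 and 2, with 3.54 and 0.365% of the UMIs of that class.

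Against the Mrc1 Pf4 cells, the members were richer in several lysosomal and lipid-handling genes. They were poorer in Mmp9, several chemokines and the monocyte genes Ccr2 and Fn1. Since 4 genes part the classes, genes that vary with those 4 were bound to differ, and the values describe what accompanies Gpnmb and Adamdec1. With the library as a block, 109 genes were higher in members and 46 lower of 9413 tested (1.65% called, edgeR quasi-likelihood test with Benjamini-Hochberg adjustment at 0.05, rule genes left out). Leaving out the 3 cells, and with them 3 and 1 Mrc1 Pf4 cells of wtIDH1 replicates 1 and 2, changed the counts. They became 228 (2.44%) and 123 (1.32%) of 9349 (3.75% in all), and 141 genes were called both ways. Which of the removed cells changed the counts was not tested. Without mIDH1 replicate 1 they were 39 and 15, without wtIDH1 replicate 1 45 and 23, and without wtIDH1 replicate 2 39 and 16. Without the library block 0 genes were called by edgeR, and 535 had an unadjusted p under 0.05.

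Of the lysosome and acid hydrolase genes, 6 of 22 tested were higher in members and 0 lower, with a median log2 fold change of 0.40 against 0.00 over all genes tested. Counts for 1 direction are read against 1.16% of all genes higher and 0.489% lower. With those 3 cells left out 12 were higher and 1, Ctsl, was lower, and without mIDH1 replicate 1, wtIDH1 replicate 1 and wtIDH1 replicate 2 the counts were 3, 2 and 1. Ctsd, the aspartic protease cathepsin D on chromosome 7 at 142375911 to 142388038, stood at 4782 and 5467 CPM in mIDH1 members and 4074 and 5002 CPM in wtIDH1 members. In Mrc1 Pf4 cells it stood at 2299 and 1342 CPM in mIDH1 and 1783 and 2494 CPM in wtIDH1. Members lay above Mrc1 Pf4 cells in all 4 libraries, by 1.35 ± 0.16 on the log2 scale (SE, adjusted p = 0.00237, edgeR). Members with more Adamdec1 than Gpnmb UMIs stood near the Mrc1 Pf4 cells, at 1829 and 2557 CPM in wtIDH1 replicates 1 and 2.

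Atp6v0d2, a subunit of the proton pump that acidifies lysosomes, had 101 and 39.0 CPM in mIDH1 members and 41.2 and 96.7 CPM in wtIDH1 members. The Mrc1 Pf4 cells had 51.8 and 13.7 CPM in mIDH1 and 6.25 and 29.8 CPM in wtIDH1, and the log2 fold change was 1.65 ± 0.23 (adjusted p = 0.00537, edgeR). Again every library had the higher value in members. Psap, the precursor of saposins that aid sphingolipid breakdown, rose by 0.73 ± 0.11 (adjusted p = 0.0129, edgeR), and Ctsb, cathepsin B, by 0.65 ± 0.13 (adjusted p = 0.032, edgeR). Psap missed the threshold without wtIDH1 replicate 1 or 2, at adjusted p = 0.0706 and 0.0641.

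The lipid-associated macrophage genes had 5 of 17 genes higher and 0 lower, with a median of 0.33, and 3 higher without either wtIDH1 library. Fabp5, which binds fatty acids inside the cell, stood at 2535 and 2561 CPM in mIDH1 members and 1805 and 1327 CPM in wtIDH1 members. In Mrc1 Pf4 cells it stood at 1040 and 797 CPM in mIDH1 and 527 and 613 CPM in wtIDH1, below every member value. The log2 fold change was 1.49 ± 0.13 (adjusted p = 0.000776, edgeR). Members with more Adamdec1 than Gpnmb UMIs stood at 360 and 565 CPM in wtIDH1 replicates 1 and 2, below the Mrc1 Pf4 cells of those libraries. Cd63, a tetraspanin of late endosomes, stood at 946 and 1589.6 CPM in mIDH1 members and 938 and 1169 CPM in wtIDH1 members, against 456 and 289.6 CPM and 438 and 609.9 CPM in the Mrc1 Pf4 cells of the same libraries. It rose by 1.40 ± 0.21 (adjusted p = 0.00932, edgeR). Trem2, the lipid-sensing receptor of macrophages, rose by 0.72 ± 0.14 (adjusted p = 0.032, edgeR), but lost the call without mIDH1 replicate 1, wtIDH1 replicate 1 or wtIDH1 replicate 2, at adjusted p of 0.106, 0.0993 and 0.106. Spp1, osteopontin, gave 0.33 ± 0.19 and missed the threshold (adjusted p = 0.511, edgeR).

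Of 12 cholesterol efflux genes, Apoc1, a small apolipoprotein, and Pltp, which transfers phospholipid to lipoproteins, were higher, by 1.76 ± 0.35 and 0.80 ± 0.17 on the log2 scale. Igf1, insulin-like growth factor 1, stood at 83.8 and 8.35 CPM in mIDH1 members and 17.8 and 142 CPM in wtIDH1 members, against 16.8 and 8.08 CPM and 6.61 and 27.1 CPM in Mrc1 Pf4 cells of the same libraries. It rose by 2.09 ± 0.24 (adjusted p = 0.00237, edgeR), although the value of mIDH1 replicate 2 rests on 3 UMIs of 1 cell and leaving out wtIDH1 replicate 2 gave 1.75 with an adjusted p of 0.0796. The other genes of largest change by the fixed rule were Bhlhe41, a transcriptional repressor, at 2.04, Syngr1 at 1.89, Vegfb, a growth factor of the VEGF family, at 1.84, Hpgds, a prostaglandin D synthase, at 1.42, Vcam1, an adhesion molecule, at 1.36, Il18bp, which binds interleukin 18, at 1.31 and Gpx3, a glutathione peroxidase, at 1.30.

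Mmp9, a protease of basement membrane collagen, was the clearest gene in the other direction, at 26.9 and 22.3 CPM in mIDH1 members and 4.31 and 38.8 CPM in wtIDH1 members. In the Mrc1 Pf4 cells it stood at 211 and 178 CPM in mIDH1 and 60.6 and 206 CPM in wtIDH1. The members lay below the Mrc1 Pf4 cells of their own library in all 4, and the gene fell by 2.79 on the log2 scale (SE 0.18, adjusted p = 9.89e-05, edgeR). Inflammatory cytokines and chemokines had 5 of 21 lower and 0 higher, with a median of -0.53, and 3 and 2 lower without mIDH1 replicate 1 and wtIDH1 replicate 2. Cxcl3, a ligand that draws neutrophils, had 220 and 273 CPM in mIDH1 members and 33.8 and 67.5 CPM in wtIDH1 members, against 675 and 1917 CPM and 189 and 222 CPM in Mrc1 Pf4 cells. Its log2 fold change was -2.11 ± 0.20 (adjusted p = 0.000887, edgeR). Il6, Ccl24, Ccl9 and Cxcl1 were the others, with Ccl24 at -1.43 and Ccl9 at -1.23.

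Monocyte genes had 2 of 17 lower and 0 higher, with 3 positive and a median of -0.38. Their sums were 5462 and 5100 CPM in mIDH1 members and 6423 and 3157 CPM in wtIDH1 members. In Mrc1 Pf4 cells they were 11639 and 16478 CPM in mIDH1 and 6653 and 4373 CPM in wtIDH1, so the gap was wider in mIDH1. Ly6c2, a further gene of this list, was higher in members than in Mrc1 Pf4 cells of each wtIDH1 library and lower in each mIDH1 library. Ccr2, the receptor by which monocytes enter tissue, stood at 128 and 83.5 CPM in mIDH1 members and 247 and 192 CPM in wtIDH1 members. In Mrc1 Pf4 cells it stood at 352 and 369 CPM in mIDH1 and 445 and 351 CPM in wtIDH1, above every member value. The gene fell by 1.20 on the log2 scale (SE 0.19, adjusted p = 0.0123, edgeR). Fn1, fibronectin, fell by 1.08 on the log2 scale (SE 0.13, adjusted p = 0.00237, edgeR). Of 12 border and tissue-resident macrophage genes Igf1 was higher and Ccl24, Folr2 and Cbr2 were lower. The 12 tested genes of MHC class II presentation had 0 calls by edgeR and by DESeq2 and 6 at an unadjusted p under 0.05, with 1 of them positive. The 22 genes of the hypoxia response had 0 calls by both and 4 at an unadjusted p under 0.05, with 6 positive and a median of -0.12.

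Further genes lower in members by the fixed rule were Ppbp, a platelet chemokine, at -4.75, Ms4a8a at -2.03, Cdh1, E-cadherin, at -1.67, Ltb4r1, a leukotriene receptor, at -1.53, Cbfa2t3 at -1.21, Il1r2 at -1.12 and Crip1 at -1.11. Il1r2 was uneven among members. In wtIDH1 replicates 1 and 2 it stood at 901 and 522 CPM in members with more Adamdec1 than Gpnmb UMIs. Members with more Gpnmb than Adamdec1 UMIs had 97.5 and 14.99 CPM. Of the 5 microglia markers tested, all were positive, with a median of 0.54, and Olfml3, a secreted matrix protein, was called at 1.03 ± 0.22 (adjusted p = 0.0494, edgeR). These markers moved with the class, and their part in the other results was not tested. Gzma and Nkg7, genes of T and NK cells, were also lower in members, at 1.58 to 3.19 CPM for Gzma, against 2.49 to 105 CPM in Mrc1 Pf4 cells. With 1 library left out, 3 pairs of sums remain, 1 of them alone for its genotype. Ctsd, Fabp5, Cd63, Syngr1, Bhlhe41, Mmp9, Cxcl3, Fn1, Crip1, Il1r2, Ms4a8a, Ltb4r1, Ppbp and Gzma kept their calls without any one library. Ctsb lost it without mIDH1 replicate 1 or either wtIDH1 library (adjusted p of 0.0682, 0.159 and 0.108), Atp6v0d2 and Gpx3 without wtIDH1 replicate 2 (0.0589 and 0.0549), and Ccr2 without mIDH1 replicate 1 (0.0775). Apoc1, Pltp, Vegfb, Hpgds, Vcam1, Il18bp, Ccl24, Ccl9, Cdh1, Cbfa2t3 and Nkg7 lost it without at least 2 of the 4 libraries. Hbb-bs, a hemoglobin chain, was called higher, but 369 of its 379 UMIs in wtIDH1 replicate 2 were in 1 cell.

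**Figure D2:**
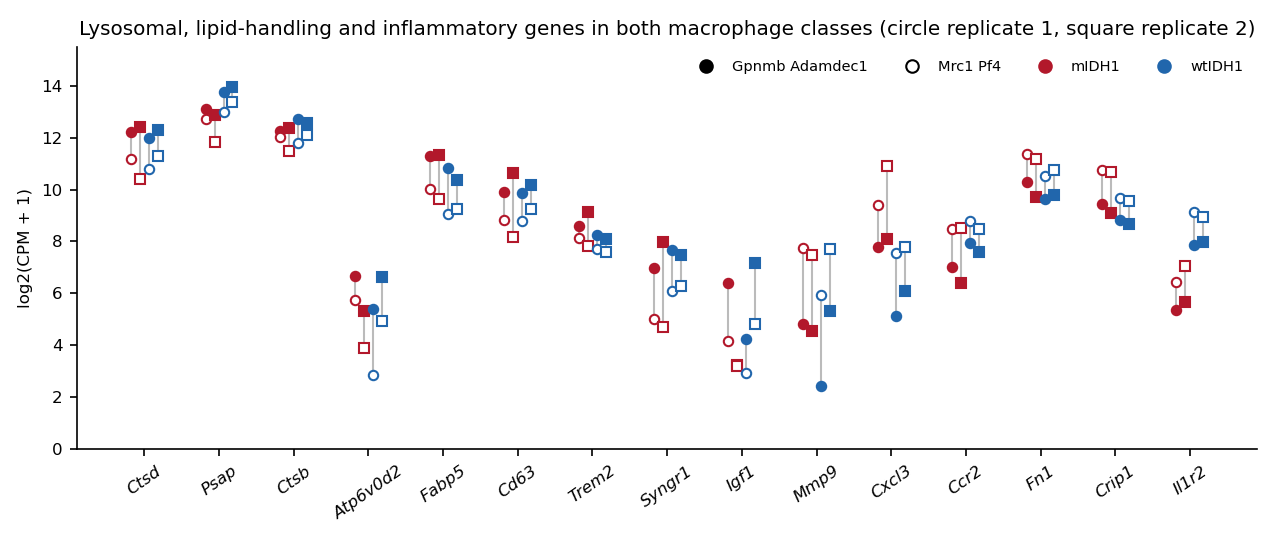
Level of 15 genes, as log2(CPM + 1), in the Gpnmb Adamdec1 (filled) and Mrc1 Pf4 (open) macrophages of each library, with mIDH1 in red, wtIDH1 in blue, circles for replicate 1 and squares for replicate 2. Ctsd, Fabp5 and Cd63 lie higher in the Gpnmb Adamdec1 cells of all 4 libraries, and Mmp9, Cxcl3, Ccr2 and Fn1 lie lower.

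The same genes varied among the members with the size of the lead. In cells with a lead of 1 to 2, 3 to 9 and 10 or more UMIs, Ctsd stood at 1247, 2651 and 8543 CPM in mIDH1 replicate 1, at 1602, 1809 and 9727 CPM in mIDH1 replicate 2, at 1931, 2503 and 5699 CPM in wtIDH1 replicate 1, and at 2700.3, 4522 and 6150 CPM in wtIDH1 replicate 2. It increased with the lead in every library. Ccr2 in cells of the shortest and longest lead stood at 287 and 3.84 CPM in mIDH1 replicate 1, 249 and 23.7 CPM in mIDH1 replicate 2, 478 and 119 CPM in wtIDH1 replicate 1, and 357 and 141 CPM in wtIDH1 replicate 2. The cells also differed in depth, with medians of 7814.5 and 16173 UMIs at the shortest and longest lead in mIDH1 replicate 1 and 6261.5 and 14659 in wtIDH1 replicate 2, whose part in these levels was not tested. The bands hold 4 to 66 cells, and the lead is part of the rule, so these are descriptions.

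**Figure D3:**
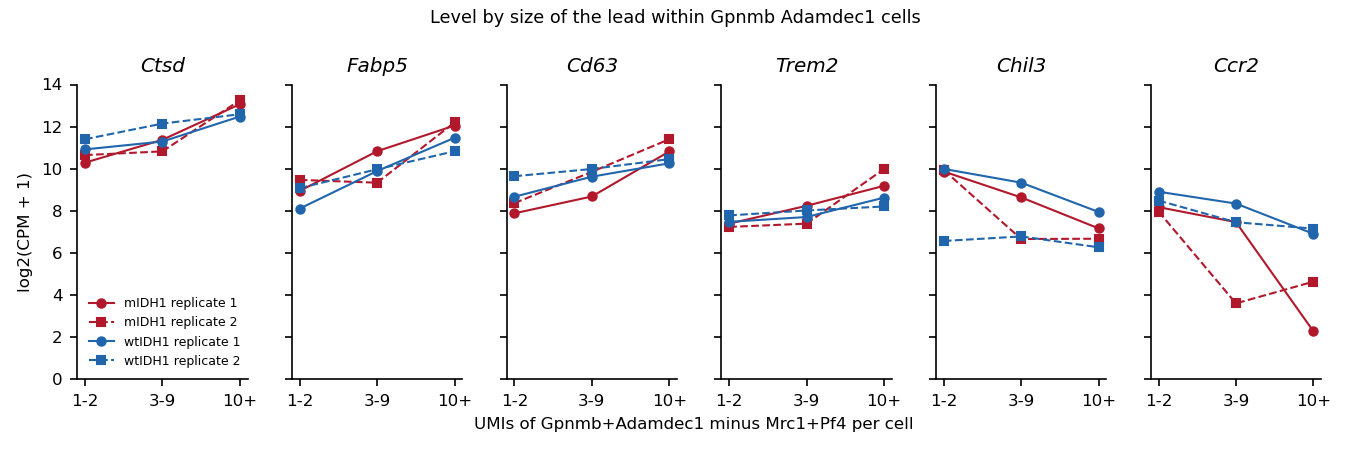
Level of 6 genes, as log2(CPM + 1), in Gpnmb Adamdec1 cells grouped by how many more UMIs of Gpnmb and Adamdec1 they held than of Mrc1 and Pf4, with 1 line per library. Ctsd increases with the lead in all 4 libraries, and Ccr2 is lower at the longest than at the shortest lead in each.

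The members fell into cells led by Gpnmb and cells led by Adamdec1. Adamdec1 exceeded Gpnmb in 5 and 2 members of the mIDH1 libraries and in 24 and 88 members of the wtIDH1 libraries, while Gpnmb exceeded Adamdec1 in 39 and 26, and in 116 and 87. Both genes were read in 4 and 0 mIDH1 members and 15 and 26 wtIDH1 members. Only wtIDH1 replicate 2 held at least 30 cells of both kinds, so the kinds are set side by side without a test. Of 3204 genes with a mean of at least 50 CPM there, 138 were 2-fold or more higher in the Adamdec1-led cells and 117 lower, and 70 and 54 of these also passed 2-fold in wtIDH1 replicate 1. How many of all 3204 genes passed 2-fold in wtIDH1 replicate 1 was not counted, so this overlap has no background beside it.

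In wtIDH1 replicate 2, Il1r2, the decoy receptor of interleukin 1, had 522 CPM in Adamdec1-led and 14.99 CPM in Gpnmb-led cells. In wtIDH1 replicate 1 the values were 901 and 97.5 CPM. Plet1 had 461 against 8.99 CPM in replicate 2 and 85.3 against 3.69 CPM in replicate 1, and Ifitm1, a membrane protein induced by interferon, had 865 against 34.0 CPM and 2522 against 295 CPM. Ffar2, a receptor of short-chain fatty acids, Mgl2, a lectin of macrophages and dendritic cells, Jaml, an adhesion molecule, Pla2g2d and Palld stood in the same direction in both libraries. In replicate 1 Pla2g2d rests on 5 UMIs in Adamdec1-led and 6 in Gpnmb-led cells.

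Other genes were lower in the Adamdec1-led cells, and these too were chosen after their values were seen. Ly6c2, an antigen of inflammatory monocytes, had 38.8 CPM in Adamdec1-led and 442 CPM in Gpnmb-led cells of wtIDH1 replicate 2, and 156 and 1122 CPM in replicate 1. F13a1, the coagulation factor XIII A chain of monocytes, had 39.9 against 351 CPM and 33.4 against 383 CPM. Ctsd had 2557 against 7142 CPM in replicate 2 and 1829 against 4522 CPM in replicate 1, and Fabp5 had 565 against 1996 CPM and 359.8 against 2094 CPM. Hmox1 had 711 against 1889.9 CPM and 204 against 1429 CPM, and Gclm and Srxn1, antioxidant genes, stood in the same direction.

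Between genotypes, mIDH1 members had higher levels of genes of the hypoxia response, of glycolysis and of several chemokines, and lower levels of Il1r2 and Ocstamp. In the fit to all members, 139 genes were higher in mIDH1 and 18 lower of 8099 tested (1.94% called, edgeR quasi-likelihood test with Benjamini-Hochberg adjustment at 0.05). Leaving out the 3 cells named above gave 37 higher (0.465%) and 3 lower (0.0377%) of 7963 (0.502% in all). Of these 40, 39 were also called with all cells, which is 97.5% of the shorter list and 24.8% of the 157 genes of the longer list. Without mIDH1 replicate 1 the counts were 21 and 0, without mIDH1 replicate 2 8 and 0, without wtIDH1 replicate 1 80 and 27, and without wtIDH1 replicate 2 209 and 62. Among cells with at least 10 C1q UMIs, a restriction chosen after the data were seen, they were 2 and 0 by edgeR, with 980 genes at an unadjusted p under 0.05. The genotypes' libraries did not overlap in 55.5% of all genes tested.

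Of the 20 tested genes of the hypoxia response, 10 were higher in mIDH1 members and 0 lower, all 20 had a positive log2 fold change, and their median was 1.48 against -0.01 over all genes tested. Among all genes 1.72% were called higher and 0.222% lower. With the 3 cells left out 9 were higher, with a median of 1.51. The calls were 1 without mIDH1 replicate 1, 0 without mIDH1 replicate 2, 4 with a lead of at least 3 UMIs and 0 among cells with at least 10 C1q UMIs, where the median was 0.93.

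Hilpda, a lipid droplet protein that blocks fat breakdown (chromosome 6, 29272488 to 29275446), stood at 485 and 546 CPM in mIDH1 members and 69.5 and 110.0 CPM in wtIDH1 members. It was read in 68.9 and 60.7% of mIDH1 members and in 25.5 and 29.4% of wtIDH1 members, shares not matched for depth. In both mIDH1 libraries its level was higher at the shortest than at the longest lead. At a lead of 1 to 2 UMIs it stood at 862 and 995 CPM in mIDH1 members, against 39.6 and 159 CPM in wtIDH1 members. At 10 or more UMIs it stood at 453 and 249 CPM in mIDH1, against 61.8 and 134.8 CPM in wtIDH1. The part of the lead in the genotype difference was not tested. Over all members the genotypes did not overlap, and Hilpda rose by 2.74 ± 0.28 on the log2 scale (SE, adjusted p = 0.00569, edgeR). Leaving out the 3 cells, the change was 2.83 (adjusted p = 0.00481).

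Ndrg1, a gene of growth arrest and stress (chromosome 15, 66929318 to 66969640), had 315 and 189 CPM in mIDH1 members, against 49.2 and 29.8 CPM in wtIDH1 members. It rose by 2.90 ± 0.33 (adjusted p = 0.00798, edgeR). Adm, the vasodilator peptide adrenomedullin, had 122 and 66.8 CPM in mIDH1 members, against 0 and 5.85 CPM in wtIDH1 members, and rose by 5.13 ± 0.67 (adjusted p = 0.0157, edgeR). Adm was read in 9 of 45 and 4 of 28 mIDH1 members, against 0 of 141 and 1 of 177 wtIDH1 members, and DESeq2 gave it an adjusted p of 0.213. Ero1l, which forms disulfide bonds in the endoplasmic reticulum, had 346 and 434 CPM in mIDH1 members, against 97.8 and 138 CPM in wtIDH1 members, and rose by 1.94 ± 0.26 (adjusted p = 0.0173, edgeR). Each of these genes kept its call without the 3 cells, and each lost it without mIDH1 replicate 2, where adjusted p was 0.109 for Hilpda and Ndrg1, 0.168 for Adm and 0.189 for Ero1l.

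Hypoxia-inducible factors bind a short core in the promoters of such genes. The 5 letters ACGTG were searched on both strands in the 250 bases before each transcription start of the RefSeq promoters of build GRCm38.p6. They occurred in 16.6% of 32851 promoters, or at 18.5% of 27025 genes. Of the 9 hypoxia genes called with and without the 3 cells, 7 had a promoter in the table and 5 of these held the letters. Stretches of 30 bases around a match are shown for those 5, with the match in capitals (CACGT is the same core read on the other strand). A match is a description and says nothing of binding here.
Hilpda, chr6:29272570-29272599, plus strand: ggatggccagcggACGTGccccagggcgag
Slc2a1, chr4:119108696-119108725, plus strand: agtcccgccccggACGTGctccccaggccc
Ankrd37, chr8:45999851-45999880, minus strand: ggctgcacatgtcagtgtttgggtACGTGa
Egln3, chr12:54204087-54204116, minus strand: atgtgcatctcagACGTGagatccaggttt
Fam162a, chr16:36071626-36071655, minus strand: tccgctcgtcgcgCACGTcccgcacgcccg

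Glycolysis had 3 of 15 genes higher in mIDH1 members, with all 15 positive and a median of 0.78. Ldha, lactate dehydrogenase A, stood at 1124 and 1075 CPM in mIDH1 members and 574 and 489.6 CPM in wtIDH1 members. It rose by 1.26 ± 0.22 (adjusted p = 0.031, edgeR), as did the glycolytic enzymes Eno1 by 1.58 ± 0.24 and Gapdh by 1.39 ± 0.22. These 3 calls held without the 3 cells, and 0 held without either mIDH1 library. Near-identical pseudogene copies of Gapdh, Eno1 and Ldha exist, which makes the counting of their reads uncertain.

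Inflammatory cytokines and chemokines had 5 of 20 genes higher, with 17 positive and a median of 0.88, and 1 higher without either mIDH1 library and 11 without wtIDH1 replicate 2. Ccl8, a chemokine of monocytes, stood at 194 and 457 CPM in mIDH1 members and 16.0 and 20.7 CPM in wtIDH1 members, and rose by 4.34 ± 0.45 (adjusted p = 0.00569, edgeR). The groups were far apart, but 1 cell held 94 of its 123 UMIs in mIDH1 replicate 1 and 81 of its 164 in replicate 2. Cxcl9, induced by interferon gamma, had 694 and 771 CPM in mIDH1 members, against 273 and 132 CPM in wtIDH1 members, and rose by 2.07 ± 0.34 (adjusted p = 0.0287, edgeR). Cxcl2 and Cxcl3, which draw neutrophils, rose by 1.77 ± 0.26 (adjusted p = 0.0219, edgeR) and 2.48 ± 0.34 (adjusted p = 0.0173, edgeR), and Ccl4 was the fifth. In cells with S100a8 and S100a9 under 0.2% of UMIs, Cxcl2 and Cxcl3 gave 0.99 and 1.78 with adjusted p of 0.190 and 0.147. The neutrophil markers, summing to 1319 and 1100 CPM in mIDH1 and 221 and 229 CPM in wtIDH1, moved with these genes. A neutrophil profile, scaled to S100a8 and S100a9, was then subtracted, which took 0.798 and 0.555% of the mIDH1 members' UMIs. After it Cxcl2 and Cxcl3 kept 1.66 (adjusted p = 0.0303, edgeR) and 2.38 (adjusted p = 0.0227, edgeR). The rule limits S100a8 and S100a9 in members, and the part of neutrophil RNA in Cxcl2 and Cxcl3 was not tested.

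Outside the lists, Saa3, an acute phase protein made by macrophages, stood at 895 and 657 CPM in mIDH1 members and 67.1 and 26.0 CPM in wtIDH1 members. It rose by 4.28 ± 0.43 (adjusted p = 0.00569, edgeR). Nos2, which makes nitric oxide, had 249.8 and 159 CPM in mIDH1 members, against 44.3 and 26.6 CPM in wtIDH1 members, and was the 1 call among 14 immunosuppressive mediators, at 2.76 ± 0.32 (adjusted p = 0.00839, edgeR). Of its 57 UMIs in mIDH1 replicate 2, 22 lay in the cell of 57329 UMIs, without which Nos2 kept 2.79 (adjusted p = 0.0222). Tnfrsf9, the costimulatory receptor 4-1BB, rose by 2.66 ± 0.26 and Upp1, a uridine phosphorylase, by 3.44 ± 0.47. Folr2, a folate receptor of resident macrophages, had 19.0 and 16.7 CPM in mIDH1 members, against 0.615 and 0 CPM in wtIDH1 members, and rose by 5.71 ± 0.85 (adjusted p = 0.023, edgeR). It rests on 12 and 6 UMIs. Sdc1, a syndecan, Hcar2, a receptor of hydroxybutyrate, and Rhoc, a small GTPase, completed the named genes called without the 3 cells, at 2.62, 2.44 and 2.37.

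Il1r2 was lower in mIDH1, at 39.5 and 50.1 CPM, against 231 and 251 CPM in wtIDH1 members. It fell by 2.24 on the log2 scale (SE 0.26, adjusted p = 0.00798, edgeR), and by 2.23 without the 3 cells (adjusted p = 0.0116). Il1r2 had its higher level in the Adamdec1-led cells of both wtIDH1 libraries, and the share of such cells moved with genotype; its part in the difference was not tested. When members were chosen by Gpnmb alone against Mrc1 and Pf4, its log2 fold change was -0.46 (adjusted p = 0.773). Jaml fell by 1.92 on the log2 scale with all members (adjusted p = 0.0419, edgeR) and gave -1.08 in that choice (adjusted p = 0.38).

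Ocstamp, a membrane protein needed for the fusion of osteoclasts, stood at 1.58 and 2.78 CPM in mIDH1 members and 58.5 and 81.3 CPM in wtIDH1 members. It was read in 1 of 45 and 1 of 28 mIDH1 members, against 31 of 141 and 50 of 177 wtIDH1 members, and fell by 4.84 on the log2 scale (SE 0.55, adjusted p = 0.00798, edgeR). Without the 3 cells it fell by 4.59 (adjusted p = 0.0117), and with the choice by Gpnmb alone it gave -3.72 (adjusted p = 0.092). Slc7a11, the cystine transporter, was the 1 call among 14 NRF2 target genes, of which 0 were positive and whose median was -0.78. It had 107.5 and 139 CPM in mIDH1 members, against 359 and 381 CPM in wtIDH1 members, and fell by 1.38 on the log2 scale (adjusted p = 0.035, edgeR), a call lost without the 3 cells (adjusted p = 0.0836). Axl, a receptor for apoptotic cells, fell by 1.09 on the log2 scale (adjusted p = 0.0477, edgeR), also lost (adjusted p = 0.0772). Dnase1l3, Abcb1a, Dck, Gpr171, Fam105a, Tgfbr1, Itgax and Dusp6 were called lower with all members, between -3.19 and -1.37, and missed the threshold without the 3 cells, at adjusted p of 0.0508 to 0.101. Ccnd2, a cyclin, gave -0.73 with all cells (adjusted p = 0.369) and -2.63 without the 3 (adjusted p = 0.0215).

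Several of the highest fold changes with all members belonged to genes read in 2 of the 3 cells. Il11 and Krt18 had 117 and 39.0 CPM and 80.6 and 36.2 CPM in mIDH1 members and no UMI in wtIDH1 members, at least 104-fold and 75.4-fold higher against 3 counts over the wtIDH1 group. Without the 3 cells Il11 was at 0 in both mIDH1 libraries, and Krt18 at 0 and 6.62 CPM. Areg, Cald1, Hspb1, Tm4sf1 and Nedd4 likewise stood at 0 to 6.62 CPM without them. The inducible heat shock genes had 3 of 12 higher with all cells and 0 of 11 without the 3 by edgeR, with 2 at an unadjusted p under 0.05 and a median of 0.21. G0s2, a neutrophil marker of the lists, rose by 4.59 with all cells (adjusted p = 0.0481) and missed the threshold without the 3 (adjusted p = 0.0508).

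With 1 library left out, its genotype holds 1 library, which is assumed to vary like the pair of the other genotype, so a call kept or lost there says little of stability. Leaving out at least 1 library took the call from all genes named here but Ccl8, Il11 and Hspb1: without mIDH1 replicate 2 adjusted p was 0.109 for Tnfrsf9, Il1r2 and Cxcl2, 0.111 for Saa3 and Nos2, 0.129 for Ocstamp, 0.239 for Cxcl3, 0.241 for Upp1 and 0.318 for Cxcl9. Folr2 lost its call without either wtIDH1 library (adjusted p of 0.159 and 0.134), and G0s2 gave 1.27 without mIDH1 replicate 1 (adjusted p = 0.44).

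Other groups had few or 0 calls. The 22 lysosome genes had 0 calls by genotype by edgeR, 1 by DESeq2 and 3 at an unadjusted p under 0.05, with 9 positive and a median of -0.10. The 21 genes of the type I interferon response had 0 calls by edgeR, 3 by DESeq2 and 7 at an unadjusted p under 0.05, with 4 positive and a median of -0.71. That median turned to 0.09 without wtIDH1 replicate 1, and without wtIDH1 replicate 2 there were 9 calls, all lower. The 4 tested microglia markers had 0 calls by edgeR and by DESeq2 and 0 at an unadjusted p under 0.05, with 0 positive and a median of -0.61. Their sums, lower in mIDH1 members, moved with genotype, and their part in the other results was not tested. Of 11 cholesterol efflux genes Pltp was higher, and of 16 monocyte genes S100a10 was higher. Hmox1 stood at 623 and 354 CPM in mIDH1 members and 1227 and 1336 CPM in wtIDH1 members, without overlap, but its log2 fold change of -1.17 ± 0.27 missed the threshold (adjusted p = 0.0772, edgeR). Idh1 itself stood at 79.1 and 41.8 CPM in mIDH1 members and 52.9 and 101 CPM in wtIDH1 members, at -0.09 ± 0.39 (adjusted p = 0.929, edgeR). Counts per gene do not show the mutation itself.

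Other genes set to be given whatever their result gave few calls. Lgals3, galectin 3, stood at 2119 and 3020.4 CPM in mIDH1 members and 1668 and 1087 CPM in wtIDH1 members, without overlap but past no threshold (1.12 ± 0.30, adjusted p = 0.109, edgeR). Against Mrc1 Pf4 cells it gave 0.38 (adjusted p = 0.281), and 0.49 with the 3 cells left out (adjusted p = 0.0195). Cd274, the checkpoint ligand PD-L1, stood at 389 and 237 CPM in mIDH1 members and 309.6 and 219.5 CPM in wtIDH1 members, which overlapped (0.46, adjusted p = 0.431, edgeR). Against Mrc1 Pf4 cells it gave 0.36 (adjusted p = 0.205), and 0.45 with the 3 cells left out (adjusted p = 0.0304). Both genes were thus called between classes in that setting alone of the pair.

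Plin2, a coat protein of lipid droplets, stood at 615 and 582 CPM in mIDH1 members and 430.2 and 433 CPM in wtIDH1 members, at 0.69 (adjusted p = 0.139, edgeR). Mertk, a receptor for apoptotic cells, stood at 120.2 and 91.9 CPM in mIDH1 members and 183 and 217 CPM in wtIDH1 members, at -0.68 (adjusted p = 0.183, edgeR). Neither pair of groups overlapped, and neither gene was called. Vegfa, an angiogenic factor, stood at 334 and 320.1 CPM in mIDH1 members and 350.2 and 284 CPM in wtIDH1 members, at 0.26 (adjusted p = 0.574, edgeR). Cd36, a scavenger receptor, had 55.3 and 0 CPM in mIDH1 members and 12.3 and 105 CPM in wtIDH1 members (adjusted p = 0.778, edgeR). Both overlapped between genotypes. Slc40a1, the iron exporter ferroportin, had 12.7 and 0 CPM in mIDH1 members and 36.3 and 159 CPM in wtIDH1 members (adjusted p = 0.119, edgeR), and Il10, an anti-inflammatory cytokine, had 0 and 27.8 CPM in mIDH1 members and 1.85 and 5.85 CPM in wtIDH1 members and was not tested by genotype. Spp1, Trem2, Fabp5, Cd63, Cx3cr1, Csf1r and Chil3 missed the threshold by genotype, at 1.03, 0.95, 0.92, 0.49, -0.82, 0.03 and 0.54. Against Mrc1 Pf4 cells Plin2, Mertk, Vegfa, Cd36, Slc40a1 and Il10 missed the threshold, at adjusted p of 0.19 to 0.83.

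**Figure D4:**
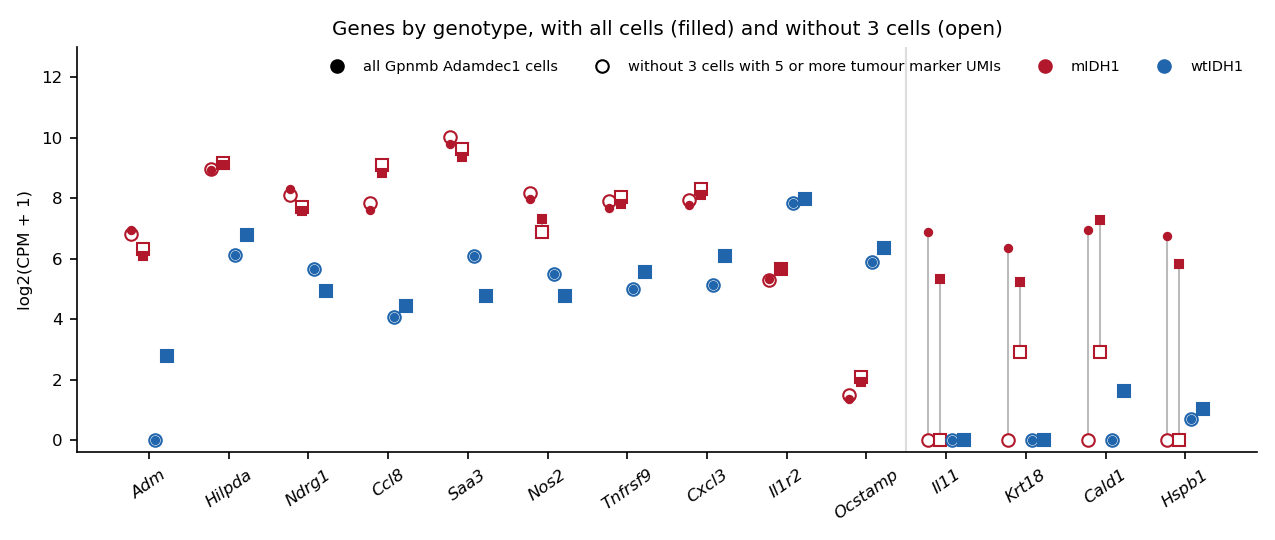
Level of 14 genes, as log2(CPM + 1), in the Gpnmb Adamdec1 cells of each library, with mIDH1 in red and wtIDH1 in blue, with all cells (small filled symbols) and without the 3 cells of at least 5 tumour, glial and neuronal marker UMIs (open symbols), circles for replicate 1 and squares for replicate 2. The 8 genes at the left stay higher in mIDH1 without those cells, Il1r2 and Ocstamp stay lower, and Il11, Krt18, Cald1 and Hspb1 are left at 0 to 6.62 CPM in mIDH1.

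The genotype difference itself differed between members and Mrc1 Pf4 cells for 9 of 9413 genes (0.0956%, edgeR interaction term with the library as a block), 3 higher (0.0319%) and 6 lower (0.0637%). The 3 cells were then left out, and with them 3 and 1 Mrc1 Pf4 cells of wtIDH1 replicates 1 and 2. In that setting 6 were higher (0.0642%) and 10 lower (0.107%) of 9349 (0.171% in all), and the 6 genes called both ways were all lower. Without mIDH1 replicates 1 and 2 the counts were 217 and 299, and 72 and 82, and without wtIDH1 replicates 1 and 2 they were 12 and 21, and 6 and 14, each with 1 genotype down to a single library. The 6 genes were Ccl2, Ccl7 and Ccl6, chemokines, Chil3 and Ly6c2, genes of inflammatory monocytes, and Ltc4s, which makes leukotriene C4.

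Chil3 (chromosome 3, 106147554 to 106167564) stood at 403 and 345 CPM in mIDH1 members and 508 and 89.3 CPM in wtIDH1 members, which overlapped. In Mrc1 Pf4 cells it stood at 2422 and 6379 CPM in mIDH1 and 355 and 105 CPM in wtIDH1, far apart. The difference of the log2 fold changes was -3.56 (adjusted p = 0.0208, edgeR). Ccl2, the ligand of CCR2, had 299 and 445 CPM in mIDH1 members and 482 and 389 CPM in wtIDH1 members, against 1413 and 3512 CPM and 487 and 334 CPM in Mrc1 Pf4 cells, a difference of -2.73 (adjusted p = 0.00244, edgeR). Ccl7 had 149 and 198 CPM in mIDH1 members and 67.7 and 139.8 CPM in wtIDH1 members, against 810.2 and 2115 CPM and 114 and 114 CPM in Mrc1 Pf4 cells. For these 3 genes the high values were those of the mIDH1 Mrc1 Pf4 cells.

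Ly6c2 had 88.6 and 145 CPM in mIDH1 members and 961 and 253 CPM in wtIDH1 members, against 334 and 375 CPM and 612 and 123 CPM in Mrc1 Pf4 cells, a difference of -2.51 (adjusted p = 0.00244, edgeR). The monocyte genes as a list summed to 5462 and 5100 CPM in mIDH1 members and 6423 and 3157 CPM in wtIDH1 members, against 11639 and 16478 CPM and 6653 and 4373 CPM in Mrc1 Pf4 cells, with 16 or 17 of the 17 genes detected in each. They moved with these genes, and their part in the result was not tested. The 3 genes with a higher difference, Cald1, Igfbp4 and Ybx3, lost the call without the 3 cells, as Igfbp4 gave 0.89 (adjusted p = 0.798) and Ybx3 0.71 (adjusted p = 0.674), and Cald1 was no longer tested. The 6 genes higher with those cells left out were Fth1, the ferritin heavy chain that stores iron, at 0.95 (adjusted p = 0.00164), Ccl5, a chemokine of T cells and monocytes, at 1.82 (adjusted p = 0.00222), Adm at 3.57 (adjusted p = 0.0055), Bhlhe41 at 1.91 (adjusted p = 0.0182), Cx3cr1, the fractalkine receptor of microglia, at 2.07 (adjusted p = 0.025) and Rgs1, a regulator of G protein signalling, at 0.88 (adjusted p = 0.0492). With all members the same genes missed the threshold, at adjusted p of 0.0661 for Fth1, 0.11 for Ccl5 and Bhlhe41, 0.105 for Adm, 0.204 for Cx3cr1 and 0.266 for Rgs1. The other 4 genes lower with those cells left out were S100a6 at -1.54 (adjusted p = 0.00222), Ccl12 at -2.03 (adjusted p = 0.0167), Rsad2 at -1.60 (adjusted p = 0.0277) and Maf at -1.23 (adjusted p = 0.0277).

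The hypoxia response had 1 call of 22 with the 3 cells left out, Adm, with a median difference of -0.01. With all members it had 0 calls of 22 by edgeR and by DESeq2, 2 at an unadjusted p under 0.05 and a median difference of -0.05. Hilpda stood at 394 and 556 CPM in mIDH1 and 88.9 and 78.2 CPM in wtIDH1 Mrc1 Pf4 cells, beside 485 and 546 CPM and 69.5 and 110.0 CPM in members, a difference of 0.03 (adjusted p = 0.989, edgeR).

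**Figure D5:**
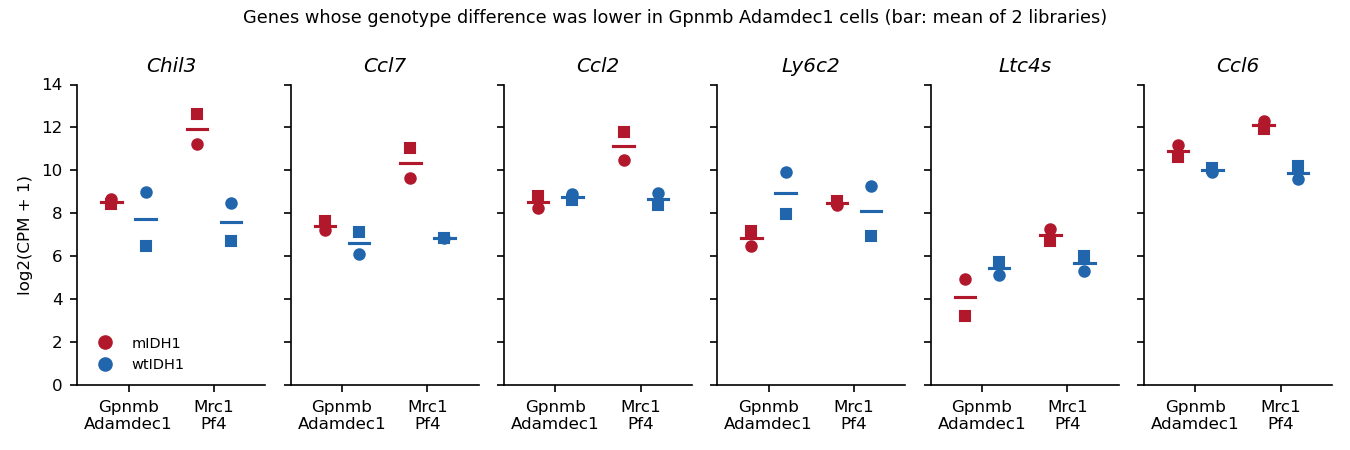
Level of 6 genes, as log2(CPM + 1), in Gpnmb Adamdec1 and Mrc1 Pf4 macrophages by genotype, with circles for replicate 1, squares for replicate 2 and bars for the mean of the logged values. Chil3, Ccl2 and Ccl7 are highest in the mIDH1 Mrc1 Pf4 cells, at 2422 and 6379, 1413 and 3512, and 810.2 and 2115 CPM.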

How the data were processed

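The deposited matrices hold raw UMI counts per gene and barcode for 4 libraries, 1 matrix each. Per the labels' protocols, Cell Ranger 3.1 aligned reads to mm10 with STAR, filtered barcodes and counted UMIs, while the file header gives software version 3.0.0. The labels' protocols also describe combining runs at equal depth, but the separate matrices of unequal depth are raw. They list 31053 genes. Libraries held 4708 and 4173 (mIDH1) and 3707 and 3701 (wtIDH1) barcodes. The members, the 31 gene lists and the 22 genes given whatever their result were chosen with earlier results of these data known, some of them after that work had seen the data.

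UMIs of the members and of the Mrc1 Pf4 cells were summed per library. The sums were tested with edgeR 4.0.16 (limma 3.58.1, R 4.3.3), using glmQLFit, glmQLFTest, TMM scaling and filterByExpr, with a threshold of 0.05 after Benjamini-Hochberg adjustment. The 21 rule genes and 13 mitochondrial genes stayed in library sizes and out of the tests. The genotype fit had no covariate, and the class and interaction fits had the library as a block. In the genotype fit, with 2 libraries against 2, the p-values rest on edgeR's variance model and measure the spread between these libraries. In the class and interaction fits they rest on the same model and measure how the class difference varies from library to library. Named genes were the 12 largest changes each way past the threshold with a mean of at least 20 CPM and libraries that separate (or agree in direction in all 4), up to 4 members of a list with the lowest p, the 6 lowest p each way of the interaction, and the 22. Predicted genes were not named, and genes of the Adamdec1-led comparison were named by the largest ratios that held in both wtIDH1 libraries, a choice made after their values were seen. One gene that the rule names is not reported here.

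DESeq2 1.42.0 was an alternative. Scrublet in scanpy 1.11.5 called under 0.1% of barcodes as doublets by its automatic threshold, which does not work here, so doublets stayed in and an alternative removed the highest scores (114, 104, 79 and 75 barcodes). The tests were tested on simulated data. Replicate numbers were not taken to pair the libraries, except in an alternative fit. Gene positions are from GENCODE M21. Sums and intervals used pandas 2.3.3 with scipy 1.17.1 under Python 3.11.15, and figures matplotlib 3.10.9.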

Additional observations from a re-analysis of the deposited data

Results flagged for a closer look

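For 9 genes the genotype difference, mIDH1 against wtIDH1, was not the same in Gpnmb Adamdec1 as in Mrc1 Pf4 macrophages by the interaction term of edgeR. On the log2 scale the difference between the classes was -3.56 for Chil3, -2.75 for Ccl7 (adjusted p = 0.0233), -2.73 for Ccl2, -2.51 for Ly6c2, -2.40 for Ltc4s (adjusted p = 0.0318) and -1.37 for Ccl6 (adjusted p = 0.0233). Without the 3 cells with tumour, glial and neuronal marker UMIs, and the Mrc1 Pf4 cells left out with them, these 6 kept their calls, at adjusted p of 0.00524 or less. Ltc4s stood at 30.04 and 8.35 CPM in mIDH1 members and 33.8 and 52.6 CPM in wtIDH1 members, against 152 and 104 CPM and 39.3 and 63.0 CPM in Mrc1 Pf4 cells. Ccl6 stood at 2339 and 1570.1 CPM in mIDH1 members and 977 and 1093 CPM in wtIDH1 members, against 5079 and 3897 CPM and 765 and 1162 CPM in Mrc1 Pf4 cells.

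The difference was higher for Cald1, at 7.93 (adjusted p = 0.0233), Igfbp4, at 3.26 (adjusted p = 0.00844), and Ybx3, at 1.64 (adjusted p = 0.0484). Cald1 stood at 122 and 153 CPM in mIDH1 members and 0 and 2.13 CPM in wtIDH1 members, but at 0 and 6.62 CPM in the mIDH1 members without the 3 cells. Igfbp4 stood at 115 and 119.7 CPM in mIDH1 members with them and at 27.6 and 13.2 CPM without them, beside 8.62 and 36.7 CPM in wtIDH1 members. Ybx3 stood at 120.2 and 136 CPM with them and 71.8 and 53.0 CPM without them, beside 36.9 and 59.0 CPM in wtIDH1 members.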

How the results depend on the processing

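The precision is set by 2 libraries a group, by 45 and 28 mIDH1 members and by 3 cells in them. For genes higher and lower in mIDH1, the 139 and 18 calls became 8 to 209 and 0 to 62 when 1 library was left out, which leaves its genotype with 1 library assumed to vary like the other pair. Library totals as the only scaling gave 62 higher genes and moved the median of all genes to -0.22, against which the hypoxia response kept a median of 1.26. No filter on low counts gave 534 and 261, a lead of at least 3 UMIs 36 and 3, leaving out the 3 cells 37 and 3, and at least 10 C1q UMIs 2 and 0. The replicate block gave 187 higher and 39 lower genes. The numbers were not taken as pairs in the main fit. Deviations of equal numbers from their genotype means correlated at 0.000576. With 2 libraries a genotype this is a single value, the same for each number by construction. Only a number is known to be shared.

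For members against Mrc1 Pf4 cells, the 109 higher and 46 lower genes became 39 to 115 and 15 to 64 without 1 library, 255 and 280 with no filter, 228 and 123 without the 3 cells, 191 and 141 with Gpnmb alone against Mrc1 and Pf4, and 0 and 0 without the library block. A lead of at least 3 UMIs gave 67 higher, and at most 5% mitochondrial UMIs 74 lower. For the difference between classes, the 3 and 6 genes became 6 to 217 and 14 to 299 without 1 library, 81 and 133 with no filter, 6 and 11 with Gpnmb alone, 7 and 10 with S100a8 and S100a9 under 0.2%, and 6 and 10 without the 3 cells. DESeq2 gave 5 higher, removal of the highest doublet scores 5 higher and a lead of at least 3 UMIs 1 higher. In these comparisons with Mrc1 Pf4 cells, leaving out the 3 cells also left out 3 and 1 Mrc1 Pf4 cells of wtIDH1 replicates 1 and 2. The causes were not tested.

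The mean share of members was 6.20% in mIDH1 and 18.02% in wtIDH1 with a lead of at least 3 UMIs, and 12.1 and 29.1% with at least 10 C1q UMIs. With Gpnmb alone it was 9.18% in mIDH1 and 17.3% in wtIDH1. In that setting the Wilson intervals of mIDH1 replicate 1 (7.53 to 13.4%) and wtIDH1 replicate 2 (12.4 to 18.0%) overlapped. Alternatives for Adamdec1-led against Gpnmb-led cells were not run, since 1 library alone held 30 cells of both.

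Genes that changed sign had missed the threshold with all members. Between genotypes, Ccnd2 turned to 0.72 with Gpnmb alone, Cd36 ran over -9.22 to 1.52 without 1 library and was 0.13 with 10 C1q UMIs, and Chil3 ran over -0.25 to 2.29 without 1 library and was -0.11 with a lead of 3. Csf1r ran over -0.28 to 0.28 without 1 library and was -0.18 with library totals and -0.030 with no filter. Idh1 ran over -0.63 to 0.42 without 1 library and was 0.084 with the stricter S100 limit, and Vegfa was -0.018 with at most 5% mitochondrial UMIs and -0.11 with a lead of 3. Between classes, Cd36 ran over -1.44 to 4.05e-06 and Csf1r over -0.14 to 0.045 without 1 library, Csf1r was 0.041 without the 3 cells and 0.022 with 10 C1q UMIs, and Cx3cr1 ran over -0.20 to 0.67 without 1 library and was -0.053 with a lead of 3 and -0.064 with Gpnmb alone. Hilpda turned to -0.19 with a lead of 3, -0.033 with the S100 limit and -0.27 with 10 C1q UMIs. Hmox1 ran over -0.17 to 0.081 without 1 library and was 0.12 with at most 5% mitochondrial UMIs, 0.35 with Gpnmb alone, 0.00092 with the S100 limit and 0.10 without the 3 cells. Plin2 was 0.011 with at most 5% mitochondrial UMIs and 0.046 with Gpnmb alone, Slc40a1 ran over -0.16 to 0.75 without 1 library and was -0.12 with a lead of 3 and -0.10 with 10 C1q UMIs, and Vegfa was -0.083 with a lead of 3.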
